A study of Mus musculus with 4 samples.

Results

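The proteasome subunit genes were examined in the mouse thymic lymphoma line T29. They were the genes whose symbol starts with Psma, Psmb, Psmc, Psmd or Psme and a digit, without Psmb8 and Psmb9, each represented by its probe set with the highest mean over the 4 arrays. This rule found 42 of the 18193 genes that have a probe set naming 1 gene. Psmc3ip, a factor of meiotic recombination, and Psme3ip1, a binding partner of Psme3, share the prefix but are not subunits. They were counted apart, which left 40 proteasome genes. Psme2 is read by a probe set that also names Psme2b and has no value here.

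All 4 samples were T29 cells, called Ikaros-deficient in the series' design text, and all had been transduced with MigR1-MLER, which supplies dominant-negative Mastermind in a form that can be induced. Notch activates its target genes together with the co-activator Mastermind, and the comparison asks which genes Notch regulates in these cells. Cells were treated with ethanol, the solvent (2 samples), or with 100 nM 4OHT, the tamoxifen metabolite that activates oestrogen receptor fusions (2 samples), for 24 h. Samples without the construct were not analysed here, so effects of 4OHT itself and of the activated construct cannot be told apart. Whether replicates were separate cultures is not in the labels, so the spread behind the p-values is that of these samples and may be only technical. In RNA of whole cultures, fewer cells of a type and less RNA per cell cannot be told apart.

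The proteasome is the large protease of the cytosol and nucleus that degrades proteins tagged with ubiquitin. Its barrel-shaped core is built of rings of alpha subunits (Psma), which gate the entry, and beta subunits (Psmb), some of which carry the proteolytic sites. The regulatory particle that caps the core has a base, with a ring of ATPases (Psmc) that unfold the substrate, and a lid, whose subunits and the remaining ones of the base are named Psmd. The Psme genes encode other activators that dock on the core. Most of these genes are expressed in all cells, while a few, such as Psma8 and Psmb11, belong to forms of the core found in particular tissues. The transcription factor NRF1 (Nfe2l1) drives the common set through antioxidant response elements when proteasome capacity is short.

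The values are log2 expression values from RMA, and a difference of 1 is a 2-fold change. Levels of different probe sets cannot be set against each other, so comparisons are made within a gene. Arrays correlated at r = 0.995 for both pairs within a group and at 0.983 to 0.987 between groups, across the genes tested. The treatment was visible in Notch targets: Dtx1, a standard Notch readout, was at 9.41 and 9.43 on the ethanol arrays and at 6.01 and 6.01 on the 4OHT arrays (limma adjusted p = 0.000506). Myc, the growth-promoting transcription factor, was at 11.63 and 11.94 on the ethanol arrays and at 10.96 and 11.12 on the 4OHT arrays (adjusted p = 0.0358). Of 12 measured T-cell markers, 11 lay above the testing floor of 4.81, and the defining Cd3e was between 11.48 and 11.86 on the 4 arrays. These markers differed with treatment: Cd247 (0.68), Ptprc (0.60) and Cd8a (0.83) rose and Cd3g (-0.57) fell in limma, 7 of the 11 were above 0, and their median was 0.38. The summed log2 level of the 12 was 125 and 126 in the ethanol samples and 128 and 129 in the 4OHT samples. Of the markers of other cells, 4 of 5 for B cells, 4 of 6 for myeloid cells, 2 of 4 for erythroid cells and 6 of 8 for stromal, epithelial and endothelial cells lay below that floor. In the last list Pecam1 rose, from 7.65 and 7.78 to 8.54 and 8.74 (limma adjusted p = 0.0165). Cdh5, listed with it as an endothelial marker, was below the floor and not tested. Its values were 4.04 and 3.95 with ethanol and 3.85 and 4.05 with 4OHT. Pecam1 was the only tested gene in the lists for other cells that was called. The 4 erythroid markers summed to 20.6 and 20.9 with ethanol and 19.9 and 19.6 with 4OHT, with Epor at -0.40. The sums of the B-cell markers were 20.5 and 21.6 against 20.6 and 20.5, of the myeloid markers 28.6 and 28.7 against 28.8 and 29.0, and of the last list 36.0 and 35.9 against 36.0 and 36.0. Single myeloid markers differed more than their sum: Cd14 was at -0.37, and Itgam, below the floor on average and not tested, was at 4.10 and 3.96 on the ethanol arrays and at 4.83 and 4.79 on the 4OHT arrays. Among the control probe sets, 18S had a 3′ minus 5′ log2 difference of 0.051 and 0.32 in the ethanol samples and 0.90 and 0.82 in the 4OHT samples, while that of Actb was between 0.40 and 0.49 on all 4 arrays. The part of these markers and of the 18S control in the differences below was not tested.

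Promoters of the proteasome genes are shown first, because a shared control element is what this gene set is known for. RefSeq promoters of assembly GRCm38.p6, each a window of one length around the start, were matched for 33 of the 40 genes, with 35 promoters in all. Psma8, Psmb1, Psmb2, Psmb7, Psmc3, Psmd3 and Psmd7 had no entry. The 100-base stretches below belong to the catalytic subunit genes that match a motif marked here. The stretch of Psmd9, which matches 2 of the marked motifs, is added. The CCAAT box was also searched but is not marked, and the catalytic Psmb11, with a CCAAT box only, is not shown. All stretches run 5′ to 3′ on the gene's strand. Capitals mark the antioxidant response element core (TGACNNNGC), the E-box bound by MYC and its relatives (CACGTG) and the core bound by the Notch effector RBPJ (TGGGAA, or TTCCCA on the other strand).
Psmb5, chr14:54617996-54618095, minus strand: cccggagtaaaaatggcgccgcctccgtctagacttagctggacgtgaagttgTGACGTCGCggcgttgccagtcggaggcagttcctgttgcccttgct
Psmb6, chr11:70525257-70525356, plus strand: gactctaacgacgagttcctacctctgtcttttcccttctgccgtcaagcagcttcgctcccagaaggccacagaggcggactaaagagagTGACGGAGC
Psmb10, chr8:105938443-105938542, minus strand: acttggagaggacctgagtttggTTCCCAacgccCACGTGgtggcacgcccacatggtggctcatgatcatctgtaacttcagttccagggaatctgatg
Psmd9, chr5:123228090-123228189, plus strand: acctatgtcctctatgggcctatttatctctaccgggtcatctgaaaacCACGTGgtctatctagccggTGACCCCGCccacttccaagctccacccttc

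The matches begin 47 bases before the start in Psmb5 and 9 bases before it in Psmb6. In Psmb10 the RBPJ core begins 127 bases and the E-box 116 bases before the start, and in Psmd9 the E-box begins at 51 and the antioxidant core at 31. Searched on both strands, the antioxidant core was in 6 of the 35 promoters (17.1%) and in 12.4% of all 32851 promoters of the same length. Its other carriers were Psmc6, Psmd12 and Psme4. The E-box was in 4 promoters (11.4%, against 7.15% of all), those of Psma4, Psmb10, Psmd9 and Psme3. The RBPJ core was in 8 (22.9%, against 25.6% of all) and the CCAAT box in 13 (37.1%, against 37.4%). Of these 4 stretches only that of Psmd9 holds both the antioxidant core and the CACGTG E-box, and there they do not overlap. These are matches of letters, not sites shown to be bound.

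No proteasome gene passed the test for a difference between 4OHT and ethanol, and most of the measured differences were small and below 0. Of the 40 proteasome genes, 39 lay above the testing floor, and Psmb11 did not. None of the 39 was called higher or lower by limma at an adjusted p under 0.05, where 7.47% of all 11581 genes tested were called, 3.57% lower and 3.9% higher. At an unadjusted p under 0.05, 3 genes were lower (Psmb2, Psmb10 and Psmd7) and 0 higher, against 13.2% and 12.3% of all genes. The changes, 4OHT minus ethanol, ran from -0.34 to 0.073, with a median of -0.12, a 1.09-fold lower level. The median over all genes tested was -0.012. The change was below 0 for 34 of the 39 genes, against 52.3% of all genes.

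The groups did not overlap, with both 4OHT arrays below both ethanol arrays, for 31 of the 39 genes, against 30.2% of all genes tested. Both 4OHT arrays were above for 3 genes (Psmb4, Psmd8 and Psme1), against 26.7% of all genes, and 5 genes overlapped. Because proteasome probe sets are bright, the same was counted over genes with a mean of at least 10, a limit chosen after seeing the data. There, 29 of 35 proteasome genes had both 4OHT arrays below, against 36.8% of 2244 genes, and 32 of 35 had a change below 0, against 54.5%. None of the 35 was called lower, against 4.59%. The median of these 35 was -0.12, and that of the 2244 genes -0.020. The genes share the same 4 arrays and are not replicates, so these counts carry no p-value.

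Differences between replicates were smaller than those between groups for most of the genes. The median gap between the 2 ethanol arrays was 0.055 and that between the 2 4OHT arrays 0.050, against a median difference of 0.12 between the groups, all in size. The difference between groups was larger than both gaps for 30 of 39 genes, and for 44.6% of all genes tested. Set against each gene's mean over the 4 arrays, the median proteasome gene was 0.065 above on ethanol replicate 1 and 0.040 above on ethanol replicate 2. It was at -0.063 on 4OHT replicate 1 and -0.061 on 4OHT replicate 2. The lowest array of a gene was one of the 4OHT arrays for 35 genes, 22 on replicate 1 and 13 on replicate 2. Ethanol replicate 1 was the highest array for 22 genes, and such extremes were not counted over all genes tested. This array stood apart from the others in its 18S 5′ level, at 8.02 against 6.35 to 6.78. It also did so in its transferrin receptor 5′ level, at 8.27 against 6.99 to 7.33. Without it, the median change was -0.12 and 34 genes were below 0.

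**Figure D1:**
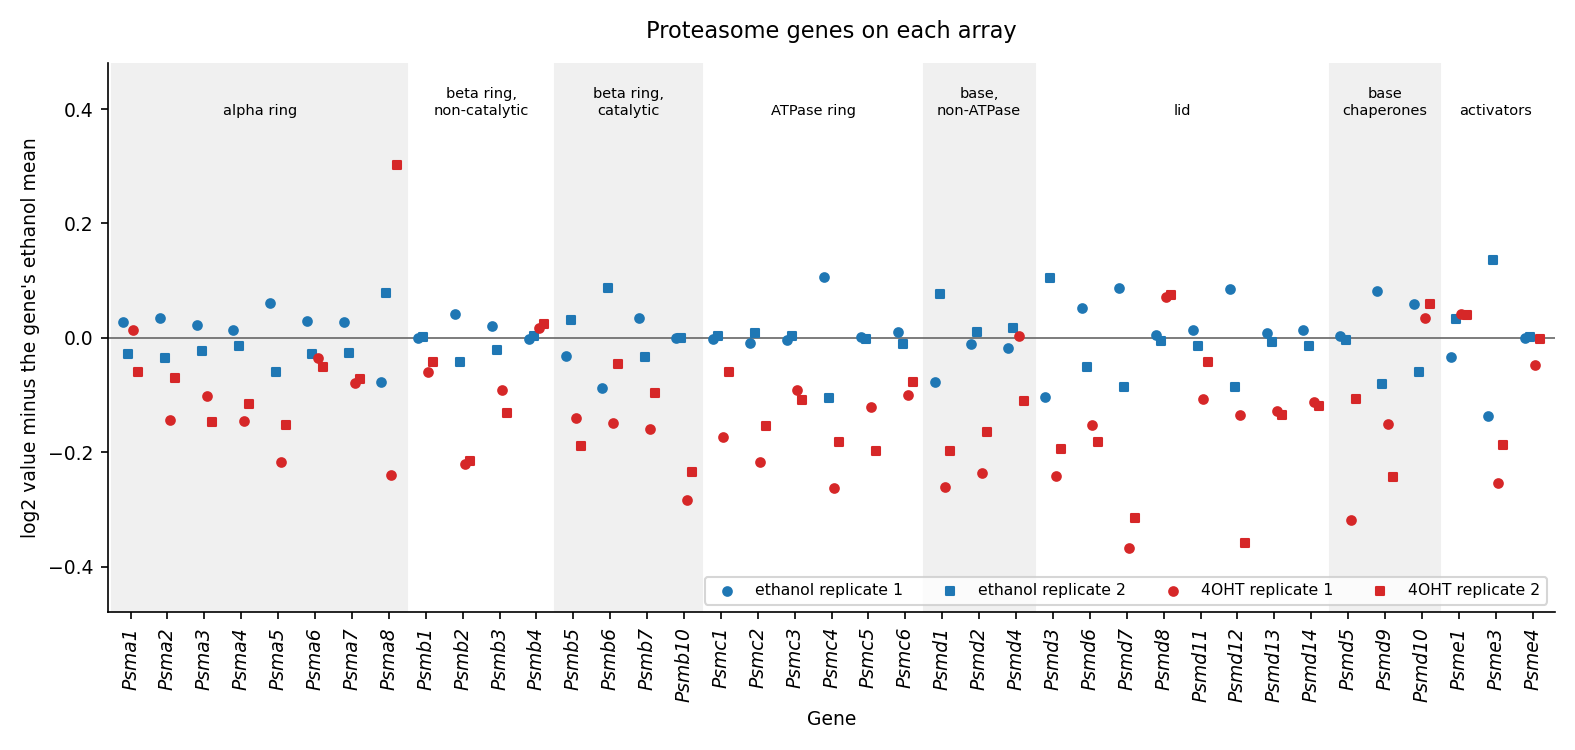
Log2 value of each of the 39 tested proteasome genes on each array, minus the gene's ethanol mean; circles are replicate 1, squares replicate 2, blue is ethanol and red is 4OHT. Both red points lie below both blue points for 31 genes, where 30.2% of all genes tested had both 4OHT arrays below. Psma8 has the widest spread between its 4OHT arrays, 0.54.

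In the alpha ring, 7 of 8 genes had a change below 0, against 52.3% of all genes tested, and none passed (median -0.091). Psma5 was at 12.10 and 11.98 on the ethanol arrays and at 11.82 and 11.88 on the 4OHT arrays, the lowest change of the ring (-0.19 ± 0.092 SE, limma adjusted p = 0.277). Its second bright probe set had a change of -0.24. Psma2, Psma3 and Psma4 were alike in size, at -0.11, -0.12 and -0.13, each with both 4OHT arrays below both ethanol arrays. With probe sets averaged, Psma3 was at 0.0017, but its other probe set is far dimmer (mean 6.91, change 0.13). Psma7 was at -0.076 and Psma6 at -0.043, and for Psma6 another bright probe set pointed the other way, at 0.058. Psma1 was nearly level, at 11.85 and 11.79 on the ethanol arrays and at 11.83 and 11.76 on the 4OHT arrays, a change of -0.023 on its brightest probe set. It was at 0.012 with quantile normalization on the same probe set, and at 0.19 with its probe sets averaged. Its other probe sets are far dimmer, with means of 6.80, 5.33 and 4.03. The direction of Psma1 thus rests on the scaling and on the probe sets used. Psma8, the alpha subunit of the testis-type core, was the 1 member above 0, at 8.39 and 8.55 on the ethanol arrays and at 8.23 and 8.77 on the 4OHT arrays. Its 4OHT arrays lay on either side of the ethanol arrays, and its 95% interval, from -0.44 to 0.50, is the widest of the set.

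The beta ring holds the proteolytic sites. The 4 tested catalytic subunit genes all had a change below 0, against 52.3% of all genes tested, and none passed. Psmb5, the chymotrypsin-like subunit and main target of bortezomib, was at 11.85 and 11.91 on the ethanol arrays and at 11.74 and 11.69 on the 4OHT arrays. Both 4OHT arrays were below, by -0.16 in the means (± 0.086 SE, limma adjusted p = 0.297). Psmb7, the trypsin-like subunit, was at 12.89 and 12.82 on the ethanol arrays and at 12.70 and 12.76 on the 4OHT arrays (-0.13 ± 0.087 SE, adjusted p = 0.408). Psmb6, the caspase-like subunit, was at 11.57 and 11.74 on the ethanol arrays and at 11.50 and 11.61 on the 4OHT arrays. Its groups overlapped, and its change was -0.097 ± 0.10 SE (adjusted p = 0.596).

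Psmb10, which takes the place of Psmb7 in the immunoproteasome, had the lowest change of the core. It was at 10.37 and 10.37 on the ethanol arrays and at 10.09 and 10.14 on the 4OHT arrays, a level 1.20-fold lower (-0.26 ± 0.084 SE, 95% interval -0.47 to -0.050, limma adjusted p = 0.129). The gap to the ethanol arrays was far larger than that between replicates, but the gene did not pass over all genes tested. The other immunoproteasome genes, which are outside the rule, had overlapping groups: Psmb8 had a change of -0.11 and Psmb9 of 0.067, and neither passed. Psmb11, the catalytic subunit of the thymoproteasome of cortical thymic epithelium, was below the testing floor on every array, at 3.46 and 3.54 on the ethanol arrays and at 3.48 and 3.24 on the 4OHT arrays.

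Of the structural beta subunits, Psmb2 had the lowest change, at 11.51 and 11.42 on the ethanol arrays and at 11.24 and 11.25 on the 4OHT arrays (-0.22 ± 0.086 SE, limma adjusted p = 0.191). Psmb3 (-0.11) and Psmb1 (-0.051) also had both 4OHT arrays below. Psmb4 was above 0 by 0.020, at 12.39 and 12.40 on the ethanol arrays and at 12.41 and 12.42 on the 4OHT arrays, a difference within its SE of 0.082. Its second probe set was at 0.052.

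All 6 ATPase genes had both 4OHT arrays below both ethanol arrays, against 30.2% of all genes tested. The share was 36.8% among genes with a mean of at least 10, where all 6 lie. Their changes ran from -0.22 to -0.089, with a median of -0.14. None passed, and the lowest adjusted p in limma was 0.243, for Psmc2. Psmc4 was at 11.96 and 11.75 on the ethanol arrays and at 11.59 and 11.67 on the 4OHT arrays (-0.22 ± 0.11 SE, adjusted p = 0.263), and its ethanol arrays differed from each other almost as much as the groups. Psmc2 was at 11.84 and 11.85 on the ethanol arrays and at 11.63 and 11.69 on the 4OHT arrays (-0.19 ± 0.085 SE). Here the ethanol arrays nearly coincided. Psmc5 was at -0.16, Psmc1 at -0.12 and Psmc3 at -0.10. Psmc6, the member nearest to 0, was at 11.71 and 11.68 on the ethanol arrays and at 11.59 and 11.62 on the 4OHT arrays (-0.089 ± 0.083 SE, adjusted p = 0.548). Its 2 other probe sets gave -0.15 and -0.099.

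The 14 Psmd genes had a median of -0.18, with 12 below 0 and 11 with both 4OHT arrays below. Of all genes tested, 52.3% were below 0 and 30.2% had both 4OHT arrays below. In the base, Psmd1 and Psmd2, the large scaffold subunits, were at -0.23 and -0.20. Psmd1 was at 11.14 and 11.30 on the ethanol arrays and at 10.96 and 11.02 on the 4OHT arrays (± 0.096 SE, limma adjusted p = 0.212). Psmd4, a ubiquitin receptor, was at 11.42 and 11.45 on the ethanol arrays and at 11.44 and 11.33 on the 4OHT arrays, and its groups overlapped (-0.054 ± 0.090 SE, adjusted p = 0.747). Its 2 other probe sets had changes of -0.056 and -0.052.

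In the lid, 7 of 8 genes were below 0, against 52.3% of all genes tested, and Psmd8 was above 0. Psmd7, which pairs with the deubiquitinase Psmd14, had the lowest change of all 39 genes. It was at 10.76 and 10.59 on the ethanol arrays and at 10.31 and 10.36 on the 4OHT arrays, a level 1.27-fold lower (-0.34 ± 0.099 SE, 95% interval -0.59 to -0.096, limma adjusted p = 0.102). With an intensity trend in the prior of the limma test its adjusted p was 0.0499, where 5.49% of all genes tested were called lower. Under the main settings, 1.27-fold was the largest measured difference of any member. A dimmer Psmd7 probe set, at a mean of 7.28, had a change of 0.011. Psmd14, which removes ubiquitin from the substrate, was at 12.25 and 12.22 on the ethanol arrays and at 12.13 and 12.12 on the 4OHT arrays (-0.12 ± 0.083 SE, adjusted p = 0.433). Both 4OHT arrays were below by more than the gap between replicates.

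Of the scaffold subunits of the lid, Psmd12 (-0.25), Psmd3 (-0.22), Psmd6 (-0.17), Psmd13 (-0.13) and Psmd11 (-0.075) had both 4OHT arrays below. Psmd11 has the most probe sets, and all 6 others above the floor also had changes below 0. Psmd8 was the clearest exception, at 11.81 and 11.80 on the ethanol arrays and at 11.88 and 11.88 on the 4OHT arrays. Its change of 0.073 ± 0.082 SE (limma adjusted p = 0.623) was the highest of all members. Replicates of Psmd8 agreed closely in both groups, and both 4OHT arrays were above.

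The 3 chaperones that help to assemble the base were split. Psmd5 was at 9.93 and 9.92 on the ethanol arrays and at 9.61 and 9.82 on the 4OHT arrays (-0.21 ± 0.10 SE, limma adjusted p = 0.269). Psmd9 was at -0.20 on its brightest probe set but at 0.072 with its probe sets averaged. That average takes in a probe set below the floor, with a mean of 4.43 and a change of 0.44. Psmd10, also known as gankyrin, was at 9.08 and 8.96 on the ethanol arrays and at 9.05 and 9.08 on the 4OHT arrays, with overlapping groups (0.047 ± 0.090 SE, adjusted p = 0.786).

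The Psme activators were split too. Psme1, an interferon-inducible activator subunit, was at 11.54 and 11.61 on the ethanol arrays and at 11.62 and 11.62 on the 4OHT arrays (0.041 ± 0.085 SE, limma adjusted p = 0.802). Psme3, the nuclear activator, was at 10.45 and 10.72 on the ethanol arrays and at 10.33 and 10.39 on the 4OHT arrays (-0.22 ± 0.12 SE, adjusted p = 0.307). A second Psme3 probe set, with a mean of 9.73, gave -0.37. Psme4, a nuclear activator too, was at -0.025, and its 3 other probe sets above the floor had changes of 0.0063 to 0.20. Of the genes that only share the prefix, Psmc3ip was at -0.14 and Psme3ip1 at -0.0089, and neither passed.

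**Figure D2:**
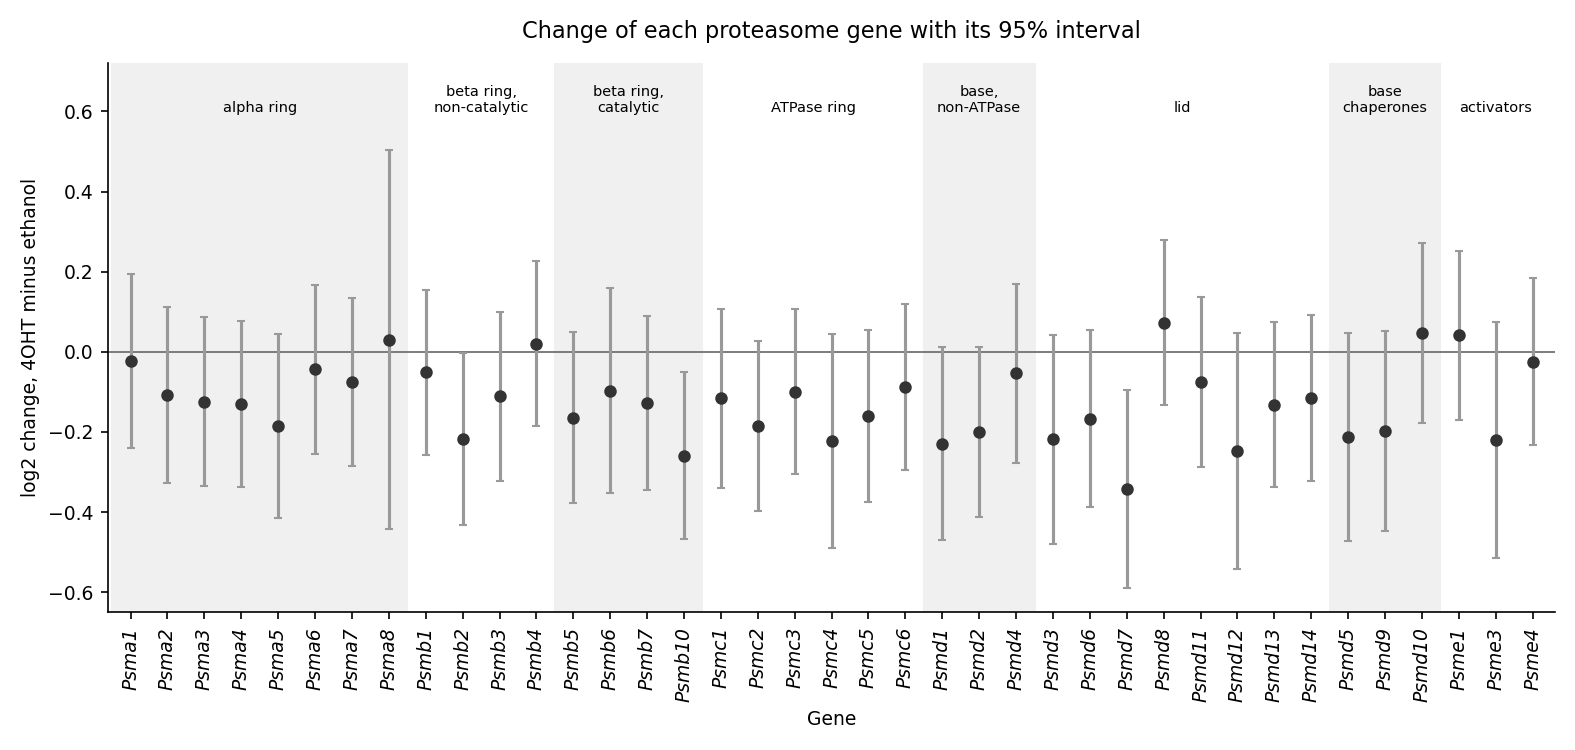
Log2 change (4OHT minus ethanol) of each tested proteasome gene with its unadjusted 95% interval from limma, by place in the complex. The intervals of Psmb2, Psmb10 and Psmd7 lie below 0, and all others include it; none of the 39 genes passed after adjustment.

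The 95% intervals limit how large the difference between these samples could have been for each tested member. They rest on the spread between replicates, which may be only technical. The lower bounds of the 95% intervals of the 39 genes reached -0.59 (Psmd7) and the upper bounds 0.50 (Psma8). A 2-fold change in either direction thus lies outside the interval of every tested proteasome gene, each interval taken singly. A change of the size of the median, -0.12, is not much larger in size than the smallest SE, 0.082, and cannot be told from 0 gene by gene with 2 arrays a group.

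Across their other probe sets, the genes mostly kept their direction where the probe set was bright. The 40 genes had 85 probe sets, and 19 genes had only 1. Of 16 other probe sets with a mean of at least 9, 14 had the same sign as the one chosen, and the exceptions were in Psma6 and Psme4. Of all 33 other probe sets above the floor, 22 did.

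**Figure D3:**
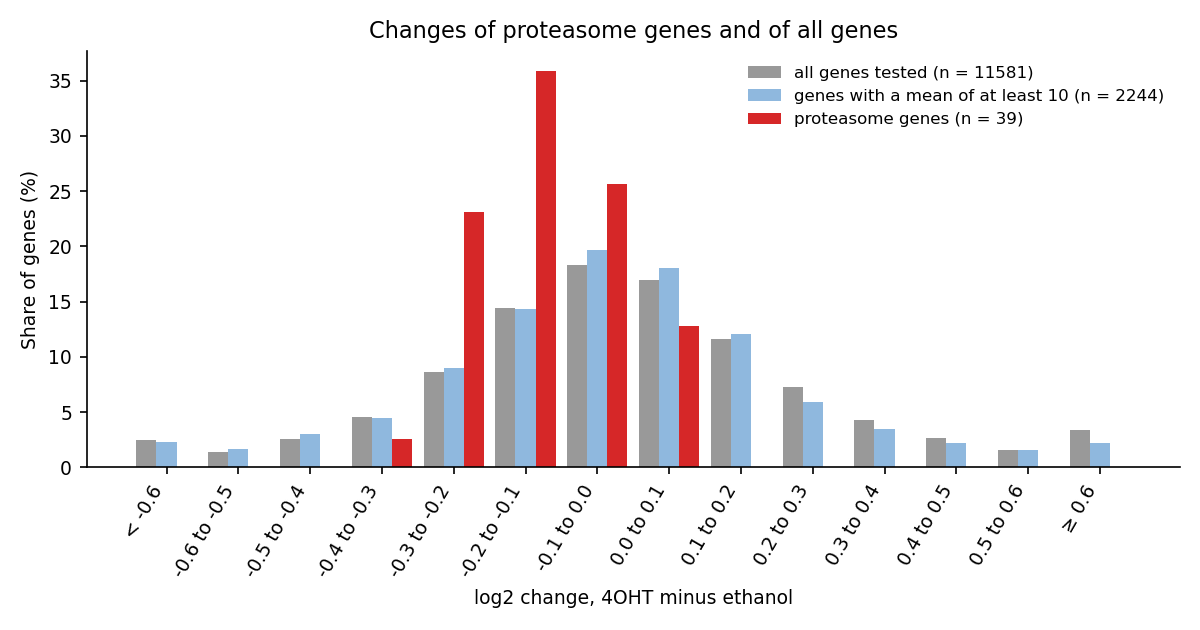
Share of genes (%) in each 0.1-wide bin of log2 change, for all genes tested, genes with a mean of at least 10 and the 39 proteasome genes. Proteasome genes lie mostly in the bins between -0.3 and 0.1, with none above 0.1 and none below -0.4.

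The factors that build the proteasome are not part of the finished particle. All 7 tested assembly factors and inhibitors were below 0, with both 4OHT arrays below both ethanol arrays in each and a median of -0.27, but none passed in limma (3 lower and 0 higher at an unadjusted p under 0.05). Of all genes tested, 52.3% were below 0, 30.2% had both 4OHT arrays below and 13.2% were lower at that unadjusted p, and the counts in the lists that follow are to be read against these shares. Psmg1, a chaperone of the alpha ring, was at 11.43 and 11.34 on the ethanol arrays and at 11.06 and 11.07 on the 4OHT arrays (-0.32 ± 0.086 SE, adjusted p = 0.0880). Psmg3 (-0.32, adjusted p = 0.141) and Psmg4 (-0.32, adjusted p = 0.0961) were of the same size, and Psmg2 was at -0.27 (adjusted p = 0.231). Pomp, which matures the beta ring, was at -0.13.

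Of 10 tested receptors and deubiquitinases that work with the proteasome, none passed (3 lower and 0 higher at an unadjusted p under 0.05), and 8 were below 0 (median -0.11). The proteasome-bound deubiquitinases Uchl5 and Usp14 were at -0.27 (adjusted p = 0.149) and -0.27 (adjusted p = 0.183), Txnl1, a thioredoxin-like protein of the particle, at -0.23 and Rad23b, a shuttle for ubiquitinated proteins, at -0.12. Of 6 tested genes for ubiquitin-like modifiers and their activating enzymes, none passed (none at an unadjusted p under 0.05) and 5 were below 0 (median -0.14).

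Of the factors that control proteasome genes, the main regulator had a measured RNA change near 0 with a wide interval. Nfe2l1, which encodes NRF1, was at 8.43 and 8.75 on the ethanol arrays and at 8.60 and 8.58 on the 4OHT arrays. Its change was -0.0047 ± 0.13 SE (95% interval -0.32 to 0.31, limma adjusted p = 0.986). The activity of the NRF1 protein was not measured. Nfe2l2, which encodes NRF2, was at 0.14 (adjusted p = 0.418). In the list of 14 tested NRF1 and NRF2 regulators and targets, 1 gene rose and none fell, where 7.47% of all genes tested were called, and the median was -0.041. A single call in 14 genes is near that share. Without adjustment, 2 of the 14 were higher and 3 lower at p under 0.05 in limma. The gene that rose was Bach1, a repressor at antioxidant response elements, at 11.11 and 11.08 on the ethanol arrays and at 11.53 and 11.57 on the 4OHT arrays (0.46 ± 0.084 SE, adjusted p = 0.0366). Its call was lost without any 1 of the 4 arrays, with no filter on dim genes and with the mean of its probe sets. Mafg, a small MAF partner of these factors, was at -0.36 (adjusted p = 0.0626), Maff at -0.48 (adjusted p = 0.152), and Ngly1, the glycanase that activates NRF1, at 0.33 (adjusted p = 0.0990).

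Antigen presentation and the p97 segregase, which works upstream of the proteasome, had medians slightly above 0. Each median was smaller than the smallest SE in its list (0.084 in both). Of all 11581 genes tested, 5519 were above 0. Of 8 tested immunoproteasome and presentation genes none passed (0 lower and 1 higher at an unadjusted p under 0.05), 5 were above 0, and the median was 0.068. The peptide-loading genes Tapbp, Tap2 and Tap1 were at 0.41, 0.23 and 0.20, and B2m was at -0.18. Of 11 p97 and ER-associated degradation genes none passed (2 lower and 0 higher at an unadjusted p under 0.05), 8 were above 0, and the median was 0.028. Vcp, which encodes p97, was at 0.080, its cofactors Nsfl1c and Faf1 were at -0.27 and -0.26, Syvn1, an ER ubiquitin ligase, was at 0.23, and none of these 4 passed.

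Other large complexes of growing cells are given for scale, with no test of a difference from the proteasome. Some subunits of the COP9 signalosome and of eIF3 share folds with those of the proteasome lid. These 2 complexes had 9 of 10 and 8 of 11 tested genes below 0, with medians of -0.094 and -0.049. The CCT ring, the cytosolic chaperonin, had all 8 tested genes below 0, with both 4OHT arrays below in each and a median of -0.20. Under the main settings no gene of these 3 complexes passed in limma. At an unadjusted p under 0.05 the lower genes were 1, 2 and 3, with none higher. The lowest members were Cops7a (-0.48, adjusted p = 0.0807), Eif3b (-0.40, adjusted p = 0.0957) and Cct3 (-0.38, adjusted p = 0.0576). Changes below 0 in every tested gene were thus found in the CCT ring as well as in the ATPase ring.

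**Figure D4:**
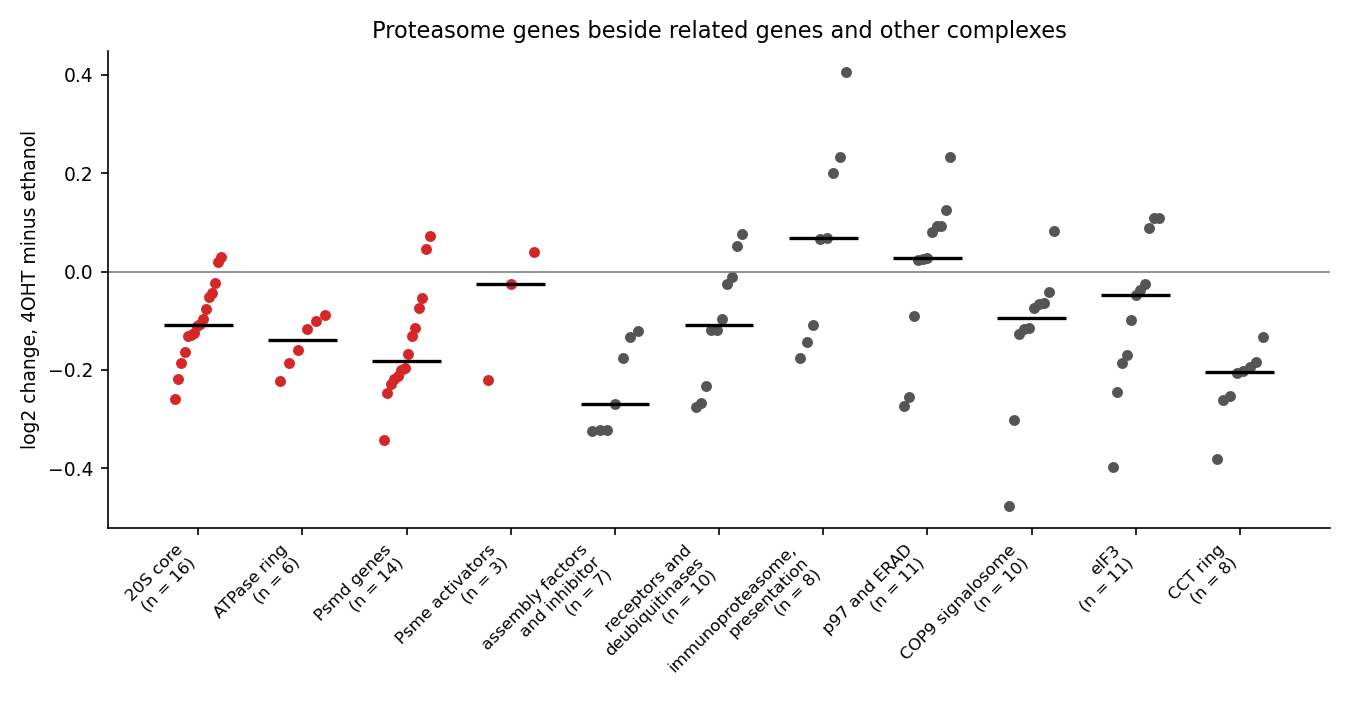
Log2 change (4OHT minus ethanol) of single tested genes (points) and their median (bar), for the parts of the proteasome (red) and for related genes and other complexes (grey). Medians are -0.11 for the 20S core, -0.14 for the ATPase ring, -0.18 for the Psmd genes, -0.025 for the Psme activators, -0.27 for the assembly factors and -0.20 for the CCT ring.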

How the data were processed

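RNA of 4 samples was measured on Affymetrix arrays. The authors deposited log2 values, 1 for each probe set on each array, which the submitters' processing notes say come from RMA (no version given). That the scale is log2 was read from the values (2.25 to 14.6). Without detection calls or depth, the number of arrays limits the precision. The platform annotation named exactly 1 gene for 34945 of 45101 probe sets.

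Each gene was read from its probe set with the highest mean. Genes below the 40th percentile of named probe sets (4.81) on average were left untested, leaving 11581. The groups were tested by limma 3.58.1 (R 4.3.3; lmFit, eBayes without trend or block). P-values were adjusted by Benjamini-Hochberg over all genes tested, and 0.05 was the threshold. The fit was tested in 20 simulated runs with 200 changed genes each, fewer than the 865 called in the data. It found 5.76% of changes of 0.5 in size, 83.1% of 1 and 98.6% of 2, and 5.2% of its calls were false. Every proteasome gene had a measured change of less than 0.5 in size, so the absence of calls does not show that their levels were equal. By rule, values in every array are given for catalytic subunits and for the highest and lowest member of each part of the complex, and up to 4 genes are named per list, called ones first, then the largest changes. Psmb2, Psmc2, Psmd14, Psma1, Pomp, Psmb8, Psmb9, Nfe2l1, Nfe2l2, Vcp, and several cell type markers were named or shown beyond that rule, after their values were seen. The members and lists were chosen with earlier results of these data known. Alternatives were other filters, scalings, probe set choices, priors and thresholds, the replicate number as a block, and each array left out.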

Additional observations from a re-analysis of the deposited data

How the results depend on the processing

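No proteasome gene was called higher under any alternative, and none lower under the main settings. With the replicate block, with an intensity trend and with a trend and robust prior, 1 gene was called lower, Psmd7. In these settings 8.9%, 5.49% and 5.75% of all genes tested were called lower. The same-numbered arrays deviated together (r = 0.34 over the genes tested), but with 2 numbers this does not show that they are pairs. The block raised the calls over all genes from 865 to 2135. The median change was -0.12 and moved to -0.10 with quantile normalization; leaving out 1 array gave -0.14 to -0.12. Leaving out 1 array gave 0 called proteasome genes. In the pathway and comparison lists, 1 gene was higher and 0 lower. The higher count was 0 with no filter, with probe sets averaged, at an adjusted p under 0.01 and without any 1 array, 3 with the replicate block and 2 at an adjusted p under 0.1. The lower count was 2 with the filter at the 60th percentile, 6 with the replicate block, 7 with a trend, 8 with a trend and robust prior and 6 at an adjusted p under 0.1. Some changes turned sign, among them those of Psma3 (-0.12) and Psmd9 (-0.20), which were not near 0. With the mean of probe sets, Psma1 was at 0.19, Psma3 at 0.0017, Psma6 at 0.045, Psmd9 at 0.072 and Psme4 at 0.072. That mean weighs dim probe sets as much as bright ones. For Psma3 it takes in a probe set with a mean of 6.91 and a change of 0.13. For Psmd9 it takes in one below the floor, with a mean of 4.43 and a change of 0.44. Without _x_at and _s_at probe sets, Psma6 was at 0.058 and Psme4 at 0.045. With quantile normalization, Psma1 was at 0.012 and Psme3ip1 at 0.015. With 1 array left out, the change ran from -0.060 to 0.014 for Psma1, -0.24 to 0.30 for Psma8, -0.0127 to 0.106 for Psmd10, -0.11 to 0.00314 for Psmd4 and -0.049 to 0.031 for Psme3ip1. The cause of the turns with quantile normalization or with 1 array left out was not tested. Over all genes, leaving out 1 array left 21 to 191 calls. Across all settings, 29 to 35 proteasome genes had a change below 0.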
